A study of Homo sapiens with 8 samples.

Results

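RNA polymerase II (RNAPII) occupancy was examined at internal alternative promoters, the protein-coding transcript starts that lie inside a gene and far from its most upstream start. The rule took every protein-coding transcript start of GENCODE release 44, mapped to GRCh37, that lay more than 10 kb downstream of the most upstream start of its gene and more than 3 kb from the start of any other gene. Starts of the same gene within 600 bp of the most upstream start of a cluster were joined. This gave 10742 internal starts in 5510 genes, of 39762 protein-coding starts and 20162 protein-coding genes in all, so that 27.3% of genes held at least 1. The rule used the annotation alone and no measured value.

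The ChIP was done in MDA-MB-453, an established human breast cancer cell line of luminal type. Cells received vehicle or 600 nM CDDD11-8, an inhibitor of CDK9, for 4 h, with 2 libraries per treatment from different passages of this single line. No genetic change separated the groups. Peaks had been called in each of the 4 ChIP libraries against an input library, and the 4 input libraries had no peak list of their own here.

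Many human genes can be transcribed from several promoters, and a promoter that lies within the gene yields a shorter transcript, often with another first exon. RNAPII that starts at any promoter pauses shortly after it, and CDK9, the kinase of the elongation factor P-TEFb, releases it into the gene body. At an internal promoter RNAPII that has started there can share the DNA with RNAPII that has come from the upstream promoter, and the antibody does not separate them.

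Every library was read through a list of peaks, in which a peak is a region with more RNAPII than its input and a summit is a point of highest signal inside it. A window of 300 bp either side of a start was called occupied where a peak overlapped it. The fold rank of a start was the percentile, among all summits of that library, of the highest fold enrichment over input in its window. The lists held 78306 and 57493 peaks in vehicle replicates 1 and 2 against 25897 and 21842 in CDDD11-8 replicates 1 and 2, with median widths of 612, 660, 1169 and 1356 bp, so a share of occupied windows also moves with list length. All pileup values were whole numbers in the vehicle libraries but only 0.323% and 3.36% of them in the CDDD11-8 libraries. All 9 luminal genes checked had a peak at the promoter of their longest isoform in all 4 libraries, among them FOXA1, GATA3 and ERBB2. ESR1, PGR, the basal genes KRT5, KRT14 and TP63, the leukocyte gene PTPRC and the fibroblast gene COL1A2 had none, and COL1A1 had one in CDDD11-8 replicate 1 only. With 2 libraries per treatment the exact permutation test has 6 splits and cannot give a p below 0.333, so no difference between treatments could pass 0.05. A p of 0.333 below means that the groups did not overlap.

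The internal starts fell into 3 annotation classes. The start of the transcript that the annotation takes as the main one of its gene (MANE Select or Ensembl canonical) was internal in 1242 cases (11.6%). A further 5244 starts (48.8%) belonged to other transcripts with a complete 5′ end, and 4256 (39.6%) only to transcripts whose 5′ end is marked as not found, which need not be true starts. In position, 4680 internal starts lay in an exon of the canonical transcript, 4193 in one of its introns and 491 upstream of it. The median distance from the most upstream start was 47.6 kb, with quartiles of 22.3 and 111 kb. A single internal start was found in 3012 genes and several in 2498, with a maximum of 15 in DENND2B.

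The sequence around 8 internal starts is shown to let the kinds of start be compared, with 60 bases before and 40 after each start read 5′ to 3′ on the strand of the gene from GRCh37. Capitals mark matches on either strand to the TATA box letters TATAAA, the CCAAT box or the GC box core GGGCGG, and matches to the ETS-type and E2F-type letters given further on were searched for but not found in these stretches. PRDX1 and TGIF1 stand for internal starts used without the upstream one, SLC3A2 and TEX9 for starts used beside it, ELMO2 and STS for starts whose rank was higher or lower in CDDD11-8, and SRPK2 and FBXO11 for starts with a peak in one treatment only.
PRDX1 (chr1:45987570-45987670, minus strand): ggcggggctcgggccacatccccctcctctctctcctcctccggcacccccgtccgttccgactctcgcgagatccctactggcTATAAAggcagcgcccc
TGIF1 (chr18:3449351-3449451, plus strand): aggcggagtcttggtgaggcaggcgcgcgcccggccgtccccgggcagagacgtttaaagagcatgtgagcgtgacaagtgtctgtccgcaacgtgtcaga
SLC3A2 (chr11:62648275-62648375, plus strand): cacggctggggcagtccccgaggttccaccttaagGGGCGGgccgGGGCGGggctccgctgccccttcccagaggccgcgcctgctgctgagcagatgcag
TEX9 (chr15:56657564-56657664, plus strand): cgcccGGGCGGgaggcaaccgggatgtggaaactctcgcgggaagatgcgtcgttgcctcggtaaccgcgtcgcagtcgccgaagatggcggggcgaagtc
ELMO2 (chr20:45035231-45035331, minus strand): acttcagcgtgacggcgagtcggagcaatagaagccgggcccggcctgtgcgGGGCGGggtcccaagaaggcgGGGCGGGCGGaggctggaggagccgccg
STS (chrX:7137437-7137537, plus strand): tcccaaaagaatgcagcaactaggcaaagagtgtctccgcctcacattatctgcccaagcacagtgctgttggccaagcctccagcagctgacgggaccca
SRPK2 (chr7:105029328-105029428, minus strand): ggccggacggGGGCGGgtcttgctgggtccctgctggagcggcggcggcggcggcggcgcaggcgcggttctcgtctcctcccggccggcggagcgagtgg
FBXO11 (chr2:48036284-48036384, minus strand): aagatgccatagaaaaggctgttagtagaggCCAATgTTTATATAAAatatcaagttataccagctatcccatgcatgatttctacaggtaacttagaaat
In this set the share of G and C was 81.2% at SRPK2 and 74.3% at SLC3A2 and ELMO2, against 55.4% at STS and 33.7% at FBXO11. SRPK2 held 17 CpG dinucleotides in its 101 bases and FBXO11 held 0. Capitals mark letters at any position of the stretch, and the TATAAA at PRDX1 lies downstream of its annotated start.

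The first question was how often an internal start carried RNAPII, and whether that differed from the body of the same gene. A peak overlapped 16.9% and 15.1% of internal starts in vehicle and 11.9% and 9.73% after CDDD11-8. The upstream starts of the same genes were occupied in 49.5%, 50.9%, 53.1% and 50.9%. Windows of the same width placed 5 kb before or after an internal start, inside the gene and more than 3 kb from any annotated start, were occupied in 8.23%, 5.17%, 1.92% and 1.13% of 13578 cases. Internal starts were thus occupied less often than upstream starts and more often than the gene body in each library. The mean over libraries was 16.0% ± 1.29 (SD, n = 2) in vehicle and 10.8% ± 1.54 (SD, n = 2) in CDDD11-8 for internal starts, a difference of -5.19 percentage points (exact permutation p = 0.333). For upstream starts the difference was 1.74 points (exact permutation p = 0.667) and for body windows -5.17 points (exact permutation p = 0.333). When each list was reduced to its 21842 strongest peaks, the length of the shortest, the difference at internal starts shrank to -0.405 points (10.9%, 11.1%, 11.5% and 9.73%) and that in the gene body to -1.61 points.

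Over the 8811 internal starts with at least 1 body window, the internal share exceeded the body share by 5.19, 7.19, 8.34 and 7.88 percentage points in vehicle replicates 1 and 2 and CDDD11-8 replicates 1 and 2. The groups did not overlap in this measure (mean difference 1.92 points, exact permutation p = 0.333), and with lists of equal length it was 2.01 points. Where a summit had to lie in the window, the excess was 4.87, 6.30, 6.97 and 6.28 points. The treatments then overlapped (difference 1.04 points, exact permutation p = 0.667). As a ratio, internal starts were occupied 1.56 and 2.23 times as often as the body windows beside them in vehicle and 4.72 and 7.07 times as often in CDDD11-8. The internal share lay 32.6 and 35.8 points below the upstream share in vehicle and 41.2 and 41.1 points below it in CDDD11-8. Distinct peaks behind these calls numbered 1538, 1362, 999 and 821, since neighbouring internal starts can lie under the same peak. A single peak reached from the upstream to the internal start in at most 2.53% of occupied internal starts.

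The annotation classes differed in occupancy and in their values under CDDD11-8. Canonical internal starts had a peak in 34.9%, 36.4%, 37.2% and 35.6% of cases, so the treatments overlapped (difference 0.765 points, exact permutation p = 0.667). Other complete starts had a peak in 13.6% and 11.96% in vehicle and 10.5% and 8.37% in CDDD11-8. Starts with the 5′ end not found had a peak in 15.7% and 12.8% in vehicle and 6.20% and 3.85% in CDDD11-8, the lowest of the classes under treatment. The share at starts with the 5′ end not found was lower by 9.22 points in CDDD11-8 and that at other complete starts by 3.34 points, each without overlap (exact permutation p = 0.333). With lists of equal length these differences became 4.47 points at canonical starts, 0.410 points at other complete starts, which turned its direction, and -2.83 points where the 5′ end was not found. Canonical starts made up 23.8% and 27.9% of all occupied internal starts in vehicle and 36.1% and 42.3% in CDDD11-8.

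The classes also differed from the gene body beside them. In vehicle replicates 1 and 2 and CDDD11-8 replicates 1 and 2, canonical starts were occupied 6.02, 10.3, 15.7 and 19.0 times as often as their body windows and other complete starts 1.52, 2.17, 4.83 and 7.49 times as often. Where the 5′ end was not found the ratio was 0.883, 1.06, 1.19 and 1.46, so these starts were hardly set apart from the surrounding gene. The same was seen in the profile of peak coverage. A peak lay over the start itself at 32.9%, 34.6%, 36.3% and 34.5% of canonical starts. The share of them with a peak over the position 5 kb downstream was 7.81%, 6.12%, 3.78% and 2.90%. Where the 5′ end was not found, the coverage 5 kb downstream (16.1%, 12.2%, 6.65% and 4.30%) was higher than at the start itself (11.5%, 9.45%, 5.08% and 2.87%) in each library.

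Occupancy was lower far from the upstream start in each class. Canonical internal starts 10 to 20 kb away were occupied in 41.9%, 43.3%, 43.8% and 41.6% of cases, and those more than 100 kb away in 16.7%, 18.5%, 19.9% and 19.0%. Where the 5′ end was not found the share was 25.7%, 21.0%, 13.1% and 8.22% at 10 to 20 kb and 6.78%, 4.44%, 1.66% and 0.678% beyond 100 kb. By place in the canonical transcript, exonic internal starts were occupied in 15.0%, 12.03%, 6.13% and 3.85%, and intronic ones in 13.6%, 11.8%, 9.85% and 7.58%. Exonic and intronic starts were thus close to each other in vehicle, and intronic starts were higher in both CDDD11-8 libraries. Of all members, 4070 (37.9%) lay within 3 kb of another start of the same gene. Among members without such a neighbour the shares were 31.0%, 33.0%, 33.7% and 32.4% for canonical starts, 8.92%, 7.22%, 5.43% and 4.30% for other complete starts and 10.7%, 7.81%, 2.83% and 1.59% where the 5′ end was not found.

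Retention was then measured as the share of starts with a peak in both vehicle libraries that also had one in a CDDD11-8 library. Of 1389 such internal starts, 73.1% (Wilson 95% interval 70.8 to 75.4) kept a peak in CDDD11-8 replicate 1 and 64.7% (62.1 to 67.1) in replicate 2. For comparison, 76.4% of the internal starts occupied in vehicle replicate 1 were occupied in vehicle replicate 2, and 85.6% the other way round. That comparison starts from a peak in 1 vehicle library and not in both, so it is not like for like with retention. Retention was 98.1% and 97.2% at 423 canonical internal starts, 76.5% and 67.5% at 541 other complete starts but only 187 (Wilson 95% interval 39.4% to 48.8%) and 122 (28.7%) of 425 starts with the 5′ end not found kept one. At 2662 upstream starts it was 98.6% and 97.4%, and at 563 body windows 29.3% and 20.2%. Canonical internal starts were therefore kept about as often as upstream starts. The vehicle comparison by kind, replicate 1 in replicate 2 and then the other way round, gave 97.7% and 93.6% at canonical starts. It gave 75.7% and 86.3% at other complete starts and 63.4% and 78.3% where the 5′ end was not found. Upstream starts had 97.5% and 94.8% and body windows 50.4% and 80.2%. With lists of equal length the mean retention of internal starts was 81.7%, against 68.9% with the full lists.

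Retention was higher at starts that ranked high in vehicle. Among internal starts with a summit in both vehicle libraries and a mean vehicle rank under 25, 62.7% and 38.2% of 102 kept a peak in CDDD11-8 replicates 1 and 2, and at a mean rank over 75 it was 92.6% and 90.5% of 377. All 78 canonical internal starts with a rank of 50 to 75 and all 206 above that kept their peak in both CDDD11-8 libraries. Within the range over 75, 92.1% and 88.9% of 126 other complete starts, 60.0% and 51.1% of 45 starts with the 5′ end not found and 47.5% and 42.4% of 59 body windows kept a peak. These values describe each CDDD11-8 library and carry no test.

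Individual starts were called lost when both vehicle libraries and no CDDD11-8 library had a peak, and gained in the opposite case. Among internal starts 362 (3.37%) were lost and 60 (0.559%) gained, while 887 had a peak in all 4 libraries and 8548 in none. By the same rule 0.769% of all protein-coding gene starts were lost and 1.29% gained, and 2.88% of body windows were lost and 0.125% gained. Over all windows, the lost share of internal starts was thus above that of gene starts and near that of the gene body. Body windows were less often occupied in vehicle. Of windows with a peak in both vehicle libraries, 362 of 1389 internal starts, 391 of 563 body windows and 155 of 9941 gene starts were lost. Of the lost starts, 232 had the 5′ end not found, 123 were other complete starts and 7 were canonical. With lists of equal length 146 were lost and 133 gained. Without vehicle replicate 2 there were 750 lost and 117 gained, and without CDDD11-8 replicate 2 there were 138 gained.

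Among lost internal starts with a complete 5′ end, those with the highest vehicle ranks lay in genes of several functions. FBXO11, a substrate receptor of a ubiquitin ligase, had fold ranks of 94.2 and 93.8 at its start 97.3 kb inside the gene in vehicle, and ASPH, an aspartate hydroxylase, had 95.2 and 89.5. INTS6, a subunit of the Integrator complex, had 95.6 and 87.1. At these 3 genes the upstream start kept a peak in all 4 libraries, but it lay 820, 148 and 100 bp from the start of another annotated gene. The vehicle peak over the internal start was wide, with 25531 and 22248 bp at FBXO11, 112605 and 30924 bp at ASPH and 7597 and 3415 bp at INTS6. The FBXO11 and ASPH starts lay in exons 21 and 6 of the canonical transcript. IL1R1, the interleukin-1 receptor, had ranks of 95.8 and 82.0 and no peak at the upstream start in CDDD11-8.

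Gained internal starts with a complete 5′ end were led by SRPK2, an SR protein kinase, with fold ranks of 84.8 and 79.1 in CDDD11-8 replicates 1 and 2 at its canonical start 10.4 kb inside the gene. TUSC3, a subunit of the oligosaccharyltransferase, had 76.0 and 73.4, and SGK1, a serine/threonine kinase, 76.1 and 57.5. SHQ1, an assembly factor of H/ACA ribonucleoproteins, had 71.4 and 61.9. None of these 4 genes had a peak at the upstream start in any library. At G3BP2, a stress granule protein, the internal start had ranks of 70.3 and 56.4, and the upstream start was occupied in all 4 libraries with ranks of 96.2, 95.3, 98.8 and 96.8. That upstream start lay 12 bp from the start of USO1.

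Fold ranks described how strong the summits were. In windows with a summit the median fold rank of internal starts was 56.4 and 64.9 in vehicle and 77.5 and 77.8 in CDDD11-8 (difference 17.0 percentile points, exact permutation p = 0.333), while that of body windows was 46.0, 43.7, 32.6 and 32.6. Each library had its own set of starts with a summit, and the difference turned when peaks were ranked in place of summits, where the median fell by 9.98 points. In the 559 internal starts with a summit in all 4 libraries the medians were 78.0, 85.6, 86.5 and 82.7 and overlapped between treatments. Of these, 158 (28.3%) had both CDDD11-8 ranks above both vehicle ranks and 102 (18.2%) had both below. Among all gene starts with a summit in all 4 libraries 29.8% were higher and 13.0% lower. By class, 107 of 320 canonical starts were higher and 40 lower, against 48 and 41 of 182 other complete starts and 3 and 21 of 57 with the 5′ end not found. Each alternative had its own set of starts in place of the 559, and the share over all gene starts was not computed for them. With lists of equal length 200 internal starts were higher and 68 lower. Ranked by peaks, 78 of the 887 internal starts with a peak in all 4 libraries were higher and 420 lower. With windows of 150 bp either side the counts were 65 and 36. Leaving out 1 library required a summit in the remaining libraries only and gave 189 to 342 higher and 168 to 222 lower.

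Among the starts with the largest separation upward, ELMO2, a partner of DOCK proteins in Rac activation, had fold ranks of 14.9 and 23.2 in vehicle and 89.9 and 82.8 in CDDD11-8. TAB3, an adaptor of the TAK1 kinase, moved from 27.9 and 14.1 to 89.8 and 77.5 and UBXN11 from 17.0 and 16.3 to 76.7 and 65.5. These 3 starts were canonical and had no peak at the upstream start in any library. TET3, a 5-methylcytosine dioxygenase, had 0.821 and 17.7 in vehicle and 77.0 and 62.8 in CDDD11-8. MAST2, a microtubule-associated kinase, had 11.7 and 53.0 against 97.5 and 97.97. All 5 were chosen for this separation, so the values are a description.

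Among those with the largest separation downward, STS, the steroid sulfatase, had fold ranks of 96.4 and 89.7 in vehicle and 39.5 and 52.2 in CDDD11-8. PHACTR3, a phosphatase regulator, had 96.2 and 71.2 against 35.0 and 9.10. NDST1, a heparan sulfate sulfotransferase, had 79.9 and 77.3 against 48.5 and 20.3 at its canonical start. EHF, an epithelial ETS factor, had 98.4 and 94.9 against 75.04 and 67.99, while its upstream start had 97.8, 95.4, 86.8 and 97.6. The EHF peak spanned 48976 and 49041 bp in vehicle and 5933 and 3668 bp in CDDD11-8. VAV3, a guanine nucleotide exchange factor, had 97.8 and 99.0 against 79.5 and 78.0. The groups did not overlap at any of these starts, which were chosen for that.

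**Figure D1:**
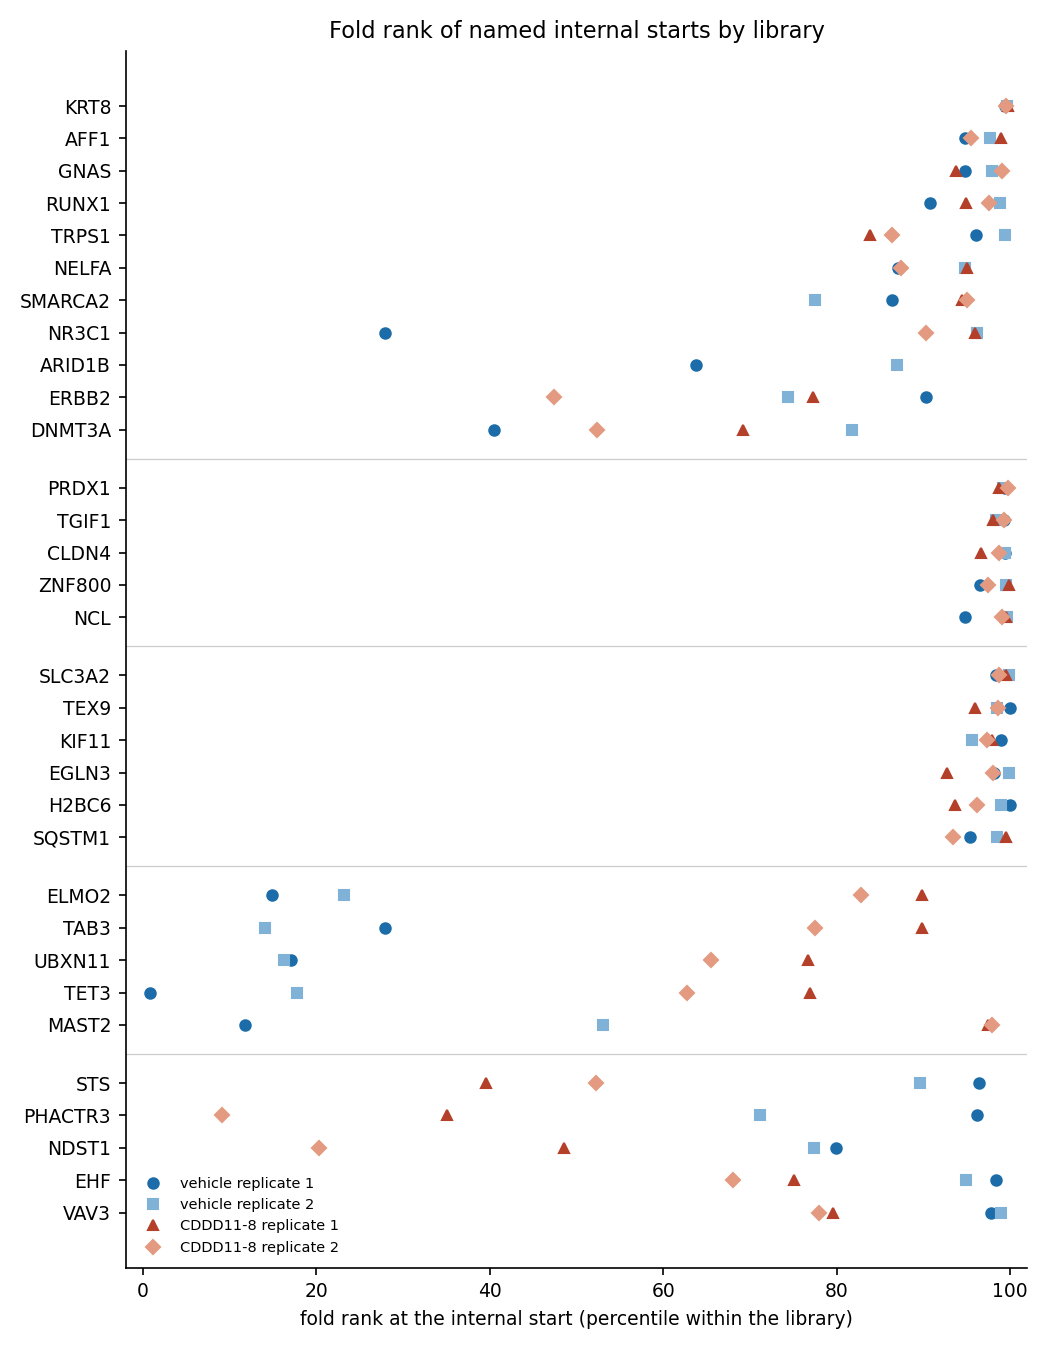
Fold rank at the internal start (x axis, percentile within the library) for named genes, with 1 point per library where a summit lay in the window. From top to bottom the blocks hold members of the gene lists, starts used without the upstream start, starts used beside it, and the starts with the largest separation upward (ELMO2 to MAST2) and downward (STS to VAV3), while the lowest rank between PRDX1 and SQSTM1 is 92.7.

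Use of the internal start was next set against the upstream start of the same gene. In all 4 libraries both kinds of start were occupied in 311 genes, the upstream start alone in 1713, internal starts alone in 287 and neither in 2052. The count of genes with both was 796 and 704 in vehicle and 495 and 382 in CDDD11-8, whereas internal starts alone were seen in 414, 398, 384 and 369 genes. Of 410 canonical internal starts with a peak in all 4 libraries, 220 (53.7%) had no peak at the upstream start in any library and 149 (36.3%) had one in all 4. Of 116 occupied starts with the 5′ end not found, 11 (9.48%) had no upstream peak in any library and 97 (83.6%) had one in all 4. An upstream start can lie beside another gene: 2272 of 5510 (41.2%) were within 3 kb of another gene's start, and they were occupied in 68.2%, 70.0%, 72.3% and 70.6% against 36.4%, 37.6%, 39.6% and 37.1% of the rest. With those genes set aside, 161 of 206 occupied canonical internal starts (78.2%) had no upstream peak in any library.

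The strongest internal starts without an upstream peak kept ranks near the top of each list. PRDX1, a peroxiredoxin, had fold ranks of 99.5, 99.2, 98.7 and 99.8 at its canonical start 20.8 kb inside the gene. TGIF1, a homeodomain repressor, had 99.4, 98.4, 98.03 and 99.3, and CLDN4, a tight junction protein, 99.4, 99.4, 96.6 and 98.7. ZNF800 had 96.5, 99.6, 99.9 and 97.5. NCL, the nucleolar protein nucleolin, had 94.8, 99.7, 99.5 and 99.1. The peak over the PRDX1 start was 19986 and 18354 bp wide in vehicle and 5728 and 5403 bp in CDDD11-8, and that over the NCL start 17684 and 17852 against 7885 and 6338 bp. Rank stayed near the top at PRDX1 and NCL while their peaks were narrower in both CDDD11-8 libraries. The TGIF1 peak was instead wider, with 6509 and 6880 bp in vehicle and 9153 and 8872 bp in CDDD11-8. So was the ZNF800 peak, with 2278 and 3164 against 7088 and 5967 bp. Widths at CLDN4 overlapped (7008 and 7095 against 7800 and 6915 bp). Over the internal starts occupied in each library the median peak width was 1979 and 2118 bp in vehicle and 3670 and 3363 bp in CDDD11-8.

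Where both starts had a summit in all 4 libraries, fold enrichment was compared within the gene as a log2 ratio of internal to upstream start. The 155 internal starts of this kind had medians of -0.01 and -0.10 in vehicle and -0.48 and -0.41 in CDDD11-8 (difference -0.39, exact permutation p = 0.333). Over all starts with a summit at both in a given library the medians were -0.42, -0.93, -1.02 and -0.52, with overlap between treatments (difference -0.09, exact permutation p = 0.667). By class the medians of the 155 were 0.15, 0.16, 0.07 and 0.15 for 75 canonical starts, 0.00, -0.10, -0.64 and -0.45 for 57 other complete starts and -0.65, -1.17, -2.52 and -2.61 for 23 with the 5′ end not found. The internal start had the higher fold in all 4 libraries at 26 of the 155, of which 17 were canonical, and the lower fold in all 4 at 49. Genes whose upstream start lay within 3 kb of another gene's start were not set aside in these ratios. At such upstream starts the fold can include RNAPII of the other gene.

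Among genes with strong summits at both starts, SLC3A2, the heavy chain of amino acid transporters, had log2 ratios of -0.95, -0.01, -0.13 and -0.77. Its upstream start lay 51 bp from that of SNHG1. KIF11, a mitotic kinesin, had 1.76, 0.31, 0.48 and 0.96 with the internal start higher in all 4 libraries, and its upstream start was 9 bp from that of IDE. TEX9 had 2.36, -0.17, -0.38 and 0.42, and EGLN3, a prolyl hydroxylase of the hypoxia response, 0.59, 1.19, -0.80 and 0.42. H2BC6, a histone H2B gene, had 1.83, 0.04, -0.05 and 0.20, and SQSTM1, an autophagy receptor, 0.96, 0.73, 0.47 and -0.39. The treatments overlapped at SLC3A2, TEX9, KIF11 and H2BC6 and did not overlap at EGLN3 and SQSTM1, where the ratio was lower in CDDD11-8. All 6 upstream starts lay 9 to 1111 bp from the start of another gene, and RNAPII of the 2 genes cannot be told apart there.

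Sequence composition, which the rule did not use, was read in windows of 250 bp before to 50 bp after the start. Internal starts with a peak in all 4 libraries had a median GC content of 62.5% against 44.9% for internal starts without a peak in any library, 41.9% for body windows and 65.4% for occupied upstream starts. CpG-rich windows, with at least 55% GC and an observed to expected CpG ratio of at least 0.65, made up 50.6% of the internal starts occupied in all 4, 5.30% of the unoccupied ones, 1.38% of the lost ones and 18.3% of the gained ones. Among occupied canonical internal starts 71.5% were CpG-rich, close to the 72.7% of occupied upstream starts, but where the 5′ end was not found only 8.62% were. Occupancy was read in ranges of under 40%, 40 to 50%, 50 to 60% and at least 60% GC. Within canonical and other complete starts it rose with GC content in each library. Where the 5′ end was not found it also rose, except in vehicle replicate 1. There it was 23.4% at 50 to 60% GC and 22.7% at 60% or more. Canonical starts under 40% GC had a peak in 5.79%, 5.79%, 4.96% and 5.79% of 121 cases and those of at least 60% GC in 51.1%, 54.2%, 56.6% and 53.6% of 548. At 60% GC or more, other complete starts were occupied in 28.2%, 29.8%, 31.8% and 25.5% and overlapped between treatments.

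Short motifs were counted on both strands in the same windows, as letters only. GGGCGG, the core of the GC box, was found in 59.5% of internal starts occupied in all 4 libraries, 12.2% of unoccupied ones, 4.71% of body windows and 52.2% of all gene starts. CCGGAAG, an ETS-type core, was found in 9.36%, 1.86%, 0.781% and 11.8%, and TTCGCGC or TTGGCGC, E2F-type cores, in 6.09%, 1.23%, 0.354% and 6.01%. TATAAA went the other way, with 7.89%, 21.5%, 26.6% and 10.9%, and CCAAT differed little, with 33.5%, 34.9%, 34.8% and 35.8%. GC-rich letters are more frequent in GC-rich windows, so these shares are not independent of the GC content above.

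Summits sat slightly downstream of the start. In vehicle replicates 1 and 2 and CDDD11-8 replicates 1 and 2 the median offset of the top summit was 47, 66, 61 and 70 bp at canonical internal starts, with 66.8%, 68.9%, 72.9% and 72.5% of summits downstream. Upstream starts had 31, 21, 47 and 46 bp. Where the 5′ end was not found the medians were -9, -13, 27 and -24 bp, on either side of the annotated position.

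Genes with known alternative promoters were read as a list of 32, of which 28 held 114 internal starts. Of these starts 13 (11.4%) had a peak in all 4 libraries, 0 were gained and 2 lost, beside 8.26% of all internal starts with a peak in all 4, 0.559% gained and 3.37% lost. The 13 starts lay in 6 genes. RUNX1, a transcription factor of blood and epithelium, had fold ranks of 90.7, 98.9, 94.9 and 97.6 at an internal start 1116 kb inside the annotated gene and no upstream peak. GNAS, the stimulatory G protein subunit, had 94.8, 97.9, 93.8 and 99.1, also without an upstream peak. NR3C1, the glucocorticoid receptor, had 27.9, 96.2, 95.9 and 90.4 at its canonical start, so vehicle replicate 1 stood apart from the other libraries. DNMT3A, a DNA methyltransferase, had 40.5, 81.8, 69.2 and 52.3, with overlapping groups. Both lost starts of this list were in TRPS1.

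The luminal and ERBB list of 21 genes had 6 with internal starts, 22 starts in all. Of these, 10 (45.5%) had a peak in all 4 libraries, 0 were gained and 3 (13.6%) were lost. The shares of all internal starts were 8.26%, 0.559% and 3.37%. The 10 starts lay in only 4 genes, with neighbouring starts of TRPS1 and of KRT8 each counted. Over all internal starts, the 887 with a peak in all 4 libraries lay in 659 of 5510 genes. KRT8, a keratin of simple epithelia, had fold ranks of 99.4, 99.6, 99.8 and 99.5 at its canonical start 44.9 kb inside the annotated gene. Its upstream start, 1083 bp from that of KRT18, was occupied in all 4 libraries. TRPS1, a GATA-type repressor, had 96.1, 99.4, 83.9 and 86.4 at its canonical start, 140 kb inside, and no upstream peak. That TRPS1 start lay under peaks of 174854 and 41419 bp in vehicle and 11013 and 11127 bp in CDDD11-8. ERBB2, a receptor tyrosine kinase, had 90.3, 74.4, 77.3 and 47.4 at an internal start 15.3 kb from the upstream start, which itself had 95.0, 83.6, 85.7 and 84.1. The lost starts, named after their values were seen, were TRPS1 starts 190 and 317 kb inside the gene and an ERBB3 start with the 5′ end not found.

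The list of 31 elongation and chromatin regulators had 25 genes with 92 internal starts. Of these, 12 (13.0%) had a peak in all 4 libraries, 1 (1.09%) was gained and 6 (6.52%) were lost. The shares of all internal starts were the same 8.26%, 0.559% and 3.37%. The 12 starts lay in 6 genes. AFF1, a scaffold of the super elongation complex, had fold ranks of 94.8, 97.7, 98.9 and 95.5 at a start 71.8 kb inside, with log2 ratios to its upstream start of 0.87, 1.49, 0.64 and 0.48. That upstream start lay 1176 bp from the start of another gene, and RNAPII of the 2 genes cannot be told apart there. NELFA, a subunit of the negative elongation factor that holds paused RNAPII, had 87.0, 94.8, 95.0 and 87.4. SMARCA2, an ATPase of SWI/SNF remodellers, had 86.4 and 77.5 in vehicle and 94.5 and 95.0 in CDDD11-8, without overlap, at a start 36.8 kb inside. Its canonical start, 34.9 kb inside, had 51.6 and 88.1 in vehicle and 82.3 and 80.4 in CDDD11-8, with overlap. ARID1B, another SWI/SNF subunit, had a peak in all 4 libraries at a start 246 kb inside but a summit in the window only in vehicle, with ranks of 63.7 and 87.0. The gained start was in NELFA and had the 5′ end not found. The lost starts were 3 in ARID1A and 1 each in EP300, MED13 and CDK12, named after their values were seen, and 4 of these 6 had the 5′ end not found.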

How the data were processed

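RNAPII ChIP-seq peak lists of 4 libraries (2 vehicle, 2 CDDD11-8, 600 nM, 4 h) were analysed. Replicates came from separate passages, and the exact tests measure the spread between these libraries. The authors used Bowtie 2 for alignment to GRCh37 and MACS2 at default settings for peak calling, library by library against its own input (versions not given in the sources used here). The deposited pileup is a signal, the height of overlapping fragments at a summit, and is not whole in most summits of the CDDD11-8 libraries. The deposited fold enrichment is a ratio, the summit height divided by the local background. For p-value and q-value, the authors deposited −log10 values per summit, and peak length is in bp. The lists hold no read totals, so depth per library is unknown, and Wilson 95% intervals cover counting error of windows only. Longer lists hold more weak peaks, so shares, widths and losses are also functions of list length.

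Entries that shared a region were treated as 1 peak with several summits. Starts, exons and canonical transcripts came from GENCODE release 44 mapped to GRCh37, and every peak lay within the GRCh37 chromosome lengths. An upstream start is the 5′ end of the gene record. The window scripts (Python 3.11.15, pandas 2.3.3, numpy 2.4.6, scipy 1.17.1) were tested on simulated lists, where the state of 2000 of 2000 planted starts was recovered. Each treatment comparison used 1 value per library and an exact permutation test, two-sided, over 6 splits. Body windows were averaged per internal start before subtraction. Same-numbered libraries were not taken as pairs. PECAM1 was not matched in the annotation.

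Members, gene lists and tests were chosen with earlier results of these data known. Named genes had a complete 5′ end and 1 start per gene (highest mean fold rank). They were up to 12 list members with a summit in at least 2 libraries, the 6 highest by mean rank without any upstream peak, the 6 highest with summits at both starts, the 5 with the largest rank separation in each direction, and up to 5 gained and 5 lost by mean rank. Some named genes and a gene list are not reported here. Sequences were printed for the first 2 of the kinds without and with an upstream summit and the first of each later kind, leaving out chromosome 8. Alternatives were a −log10 q-value of at least 5, lists of equal length, summits in place of peaks, cover of at least 50% of the window, windows of 150 bp and 1 kb, a 20 kb minimum distance, stricter spacing, complete 5′ ends only, the farthest start per gene, body windows at 3.5 and 10 kb, each library left out and a replicate block.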

Additional observations from a re-analysis of the deposited data

How the results depend on the processing

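Precision was limited by 2 libraries per treatment, by unknown depth and by unequal list lengths, and body windows exist for part of the internal starts only. Of the values recomputed for the main results, 208 were labelled the same, 32 moved and 10 turned. For differences between treatments the label compared direction only, so a difference labelled the same can have changed much in size. Only for retention and counts did the label compare size. Values of the replicate block, which cannot change a difference, are counted among the 208. With lists of equal length mean retention was 81.7%, 133 internal starts were gained and 146 lost, and the difference at other complete starts turned to 0.410 points. With summits in place of peaks the difference at upstream starts turned to -0.372 points and 225 starts were lost. Internal minus body then overlapped between treatments (difference 1.04 points). With peaks ranked in place of summits the median rank difference turned to -9.98, with 78 of 887 starts higher and 420 lower. The log2 ratio difference given here is that over all starts with a summit at both in a given library (-0.09), not that of the 155 starts. Windows of 150 bp turned it to 0.13 and left 65 starts higher and 36 lower, and windows of 1 kb gave 545 lost and 211 lower. Complete 5′ ends only gave a retention of 83.2%, 130 lost starts and a log2 ratio difference of 0.079. The farthest start of each gene gave a retention of 60.8%, 22 gained, 232 lost, 63 higher and 47 lower, and turned the canonical share difference to -0.338 points. Starts more than 3 kb from other starts of their gene, an alternative chosen after seeing the data, gave a log2 ratio difference of 0.11, 21 gained, 173 lost, 92 higher and 51 lower. The cause of these changes was not tested. The alternatives for ranks, summit shares and annotation classes were also added after the data were seen.

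With 1 library left out the differences ranged from -6.28 to -4.11 points for internal starts, -4.63 to -2.68 for their summits, 0.635 to 2.85 for upstream starts, -6.71 to -3.64 for body windows, 0.919 to 2.92 for internal minus body, -8.56 to -5.32 for internal minus upstream, -0.0403 to 1.57 for canonical, -4.42 to -2.25 for other complete and -10.7 to -7.73 for 5′ ends not found. Retention ranged from 54.3% to 73.1%, the median rank difference from 12.8 to 21.3, the same log2 ratio difference over all starts from -0.35 to 0.16, gained starts from 65 to 138, lost starts from 373 to 750, higher ranks from 189 to 342 and lower ranks from 168 to 222. The log2 ratio difference over all starts turned to 0.16 without vehicle replicate 1 or CDDD11-8 replicate 1, and the canonical share without CDDD11-8 replicate 1.

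Replicates were separate passages, but no source used here says that the same number in both treatments marks the same passage, and pairing was not assumed. Deviations of fold rank at 559 internal starts had r = -0.03 between same-numbered libraries, while replicate 2 was lower than replicate 1 in both treatments for the shares of internal starts and body windows with a peak. With the replicate block the difference at internal starts was -5.19 points (exact sign-flip permutation p = 0.5, the smallest that 2 pairs allow). The mean of the paired differences equals the difference of the group means. The block could therefore change neither the direction nor the size of any difference.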

Other observations

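Genes with symbols that start with MAP2K, MAP3K, MAP4K, MAPK, PRKC, PRKG, CAMK or MAST were read as a kinase list. The list was formed by symbol alone, so it also holds genes that are not kinases, such as MAPK8IP1. Its 40 genes with internal starts had 89 of them. Of these starts 2 had a peak in all 4 libraries, at MAST2 and MAST3, and 1 was lost, at MAP3K6. Of all internal starts 8.26% had a peak in all 4 libraries and 3.37% were lost.

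Internal starts of one gene could differ. In GNAS the start 52.3 kb inside the gene had fold ranks of 94.8, 97.9, 93.8 and 99.1, and that 68.3 kb inside had 95.2 and 78.0 in vehicle and 37.4 and 41.3 in CDDD11-8. In TRPS1 the start 148 kb inside had 98.3 and 98.5 in vehicle and 48.3 and 55.9 in CDDD11-8. These starts were named after their values were seen, and the values carry no test.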
